A study of Mus musculus with 16 samples.

Results

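The 10 genes described here encode secreted signals that draw T cells or monocytes into tissue. They are the chemokines Cxcl9, Cxcl10, Cxcl12, Cxcl16, Ccl5, Ccl2, Ccl7, Ccl8 and Ccl9, and Csf1, the growth factor of macrophages, which is not a chemokine. They were taken by symbol from 2 tables of RNA-seq counts, in which all 10 are present among 49139 genes with a symbol. Their RNA was measured in tumour cells that had outlasted an attack by T cells, in untargeted cells of the same tumours, and in cells of tumours that had not been attacked.

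Chemokines are small proteins that set the direction in which leukocytes move by binding receptors on the cell surface. Cxcl9 and Cxcl10 bind Cxcr3 on activated T cells and are classical products of interferon signalling, Ccl5 draws T cells and monocytes, Cxcl16 is held on the membrane until proteases shed it and binds Cxcr6, and Cxcl12 binds Cxcr4 and the scavenger receptor Ackr3. Ccl2, Ccl7 and Ccl8 draw monocytes, Ccl2 and Ccl7 mainly through Ccr2, Ccl9 binds Ccr1, and Csf1 keeps macrophages alive through Csf1r.

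All libraries came from sorted 4T07 cells, a mouse mammary carcinoma line, grown in the mammary fat pad of female hybrids of Balb/cJ and C57BL/6J mice, at an age not stated in the sources used here. In mixed tumours, 250000 cells were implanted, in equal parts transduced with GFP and with mCherry, and on day 7 or day 15 the mouse received PD1KO Jedi T cells by tail vein, which recognise GFP and lack PD1. Tumours were taken 7 days after the T cells, which gave GFP cells that survived and mCherry cells that were not targeted from each of 3 tumours per injection day. Numbers given to single tumours come from the headers of the count tables, and for day 7 and control tumours these differ from the labels' own numbers. The 4 control tumours held mCherry cells only and received no Jedi T cells. Their age at harvest and the number of cells implanted are not stated in the sources used here. GFP cells were never sampled apart from Jedi T cells, so in a GFP to mCherry difference the reporter and the attack cannot be told apart. Run 1 held the day 7 libraries and run 2 the rest, so day and run cannot be told apart either.

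Library totals were 9412040 to 14535791 counts in day 7 GFP cells, 12942893 to 19970822 in day 7 mCherry cells, 21183324 to 24880582 in day 15 GFP cells, 21832170 to 22248031 in day 15 mCherry cells and 24367417 to 32808354 in controls. Of 8 keratins and other markers of mammary tumour epithelium, Krt8 and Krt18 carried most RNA in each group (Krt8 at 363 to 826 and Krt18 at 101 to 387 mean CPM, counts per 1000000 counts of the library), while Krt14 was at 0 in all day 7 libraries. The summed level of the 8 epithelial markers was also lower in GFP cells. It was 465 to 690 CPM in GFP against 988 to 1412 CPM in mCherry libraries of day 7. On day 15 it was 451 to 530 against 615 to 938 CPM. Within tumours, 2 of 4 tested fell and 1 rose on day 7, and 2 of 6 fell and 1 rose on day 15. Cdh1, of the same list, had higher means in GFP than in mCherry cells. It was at 26.2 against 6.82 CPM on day 7 and at 33.8 against 13.3 CPM on day 15. RNA of host cells was also present. The summed level of 19 macrophage and monocyte markers was 115 to 202 CPM in day 7 GFP libraries against 700 to 1018 CPM in day 7 mCherry libraries. On day 15 these markers summed to 58.0 to 78.9 CPM against 97.8 to 124 CPM, and in controls to 98.1 to 237 CPM. Cd14 alone made up most of the day 15 sums, at means of 43.3 CPM in GFP and 76.3 CPM in mCherry cells. In bulk RNA of this kind, fewer cells of a type and less RNA per cell cannot be told apart.

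Most of the genes lie in chemokine clusters (coordinates in GRCm38, from GENCODE M21). Cxcl9 (chromosome 5, 92321347 to 92328079, minus strand) and Cxcl10 (chromosome 5, 92346638 to 92348889, minus strand) are 18.558 kb apart with no coding gene between them. Ccl2 (chromosome 11, 82035571 to 82037453), Ccl7 (82045712 to 82047525) and Ccl8 (82115185 to 82116799) follow each other on the plus strand, with 8.258 kb between the first pair and 67.659 kb between Ccl7 and Ccl8. Ccl5 (83525778 to 83530518) and Ccl9 (83572919 to 83578636) are neighbours on the minus strand of the same chromosome, 42.4 kb apart. Cxcl16 (chromosome 11, 70453983 to 70459984, minus strand), Cxcl12 (chromosome 6, 117168535 to 117181367, plus strand) and Csf1 (chromosome 3, 107741048 to 107760469, minus strand) stand alone. All 10 are protein-coding, and the gene models over which reads were counted are not known. Whether the counting used strand is not stated in the sources used here, so reads of Cxcl10 and of Cxcl16 cannot be told apart from those of Art3 and Zmynd15 where the opposite strands share 133 and 552 exon bases. Art3 was at 0.157 to 1.2 CPM and Zmynd15 at 0.748 to 3.76 CPM over the 16 libraries.

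The 250 bases before the start of transcription are shown for a pair of interferon-induced chemokines, for the chemokine that fell most on day 7, and for Csf1, which alone rose there. They are from RefSeq (GRCm38.p6), 5′ to 3′ on the strand of the gene, and 6 of the 10 genes have an entry. Capitals mark matches to GAAANNGAA (close to an interferon-stimulated response element), GGGNNTTCC (close to a kappa B site) or TGANTCA (an AP-1 site), searched on both strands with TTCNNNGAA (a STAT site), and these letters were chosen with earlier results known.
Cxcl9, chr5:92328080-92328329: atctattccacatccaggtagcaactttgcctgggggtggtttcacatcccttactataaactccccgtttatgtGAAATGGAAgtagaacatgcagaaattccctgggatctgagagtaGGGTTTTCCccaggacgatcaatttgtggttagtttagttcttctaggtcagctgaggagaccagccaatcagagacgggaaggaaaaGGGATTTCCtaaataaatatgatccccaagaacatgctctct
Cxcl10, chr5:92348890-92349139: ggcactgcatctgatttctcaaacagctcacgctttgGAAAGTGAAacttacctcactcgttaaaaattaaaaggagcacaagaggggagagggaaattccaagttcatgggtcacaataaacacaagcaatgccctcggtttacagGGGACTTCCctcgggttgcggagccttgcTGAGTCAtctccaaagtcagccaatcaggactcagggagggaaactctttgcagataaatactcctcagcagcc
Ccl9, chr11:83578637-83578886: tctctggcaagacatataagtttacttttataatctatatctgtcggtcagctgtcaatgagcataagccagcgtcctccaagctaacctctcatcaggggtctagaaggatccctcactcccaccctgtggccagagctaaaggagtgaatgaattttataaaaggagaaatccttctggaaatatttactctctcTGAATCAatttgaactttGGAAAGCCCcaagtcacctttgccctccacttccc
Csf1, chr3:107760470-107760719: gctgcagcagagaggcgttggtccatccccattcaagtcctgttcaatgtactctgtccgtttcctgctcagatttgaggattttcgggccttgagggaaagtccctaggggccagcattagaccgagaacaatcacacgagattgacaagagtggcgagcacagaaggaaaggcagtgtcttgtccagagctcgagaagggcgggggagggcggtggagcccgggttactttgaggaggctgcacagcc

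In the Cxcl9 window GAAANNGAA occurs at 175 to 167 and GGGNNTTCC at 130 to 122 and at 42 to 34 bases before the start. The Cxcl10 window holds GAAANNGAA at 213 to 205, GGGNNTTCC at 103 to 95 and TGANTCA at 74 to 68 bases before the start. The Ccl9 window holds GGGNNTTCC on the minus strand at 35 to 27 and TGANTCA at 53 to 47 bases before the start, and no marked match overlaps another. None of the 4 motifs is in the window of Csf1, nor in those of Cxcl12 and Ccl8. Over 32851 promoter windows of this length, GAAANNGAA is in 7.13%, TTCNNNGAA in 7.02%, GGGNNTTCC in 4.98% and TGANTCA in 6.75%. A match describes letters only.

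Per kilobase of GENCODE M21 exon, Ccl2 was the first or second most abundant of the 10 in all 5 groups. In day 7 mCherry cells Ccl2 led at 87.8 ± 26.1 CPM per kb (SD, n = 3), ahead of Ccl7 at 62.1 ± 11.2, Ccl8 at 40.7 ± 3.02 and Csf1 at 22.6 ± 3.64. In controls Ccl2 (44.2 ± 8.20 CPM per kb, n = 4) and Csf1 (39.8 ± 4.52) were ahead of Ccl7 (13.3 ± 5.15) and Cxcl10 (9.45 ± 4.01). In day 15 GFP cells Csf1 stood first at 40.3 ± 7.86 CPM per kb and Ccl2 second at 12.3 ± 7.75 (n = 3). Cxcl9 stayed between 0.228 and 1.87 CPM per kb, and Cxcl12 was the lowest of the 10 in all 5 groups, at 0.0431 to 0.272 CPM per kb.

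**Figure D1:**
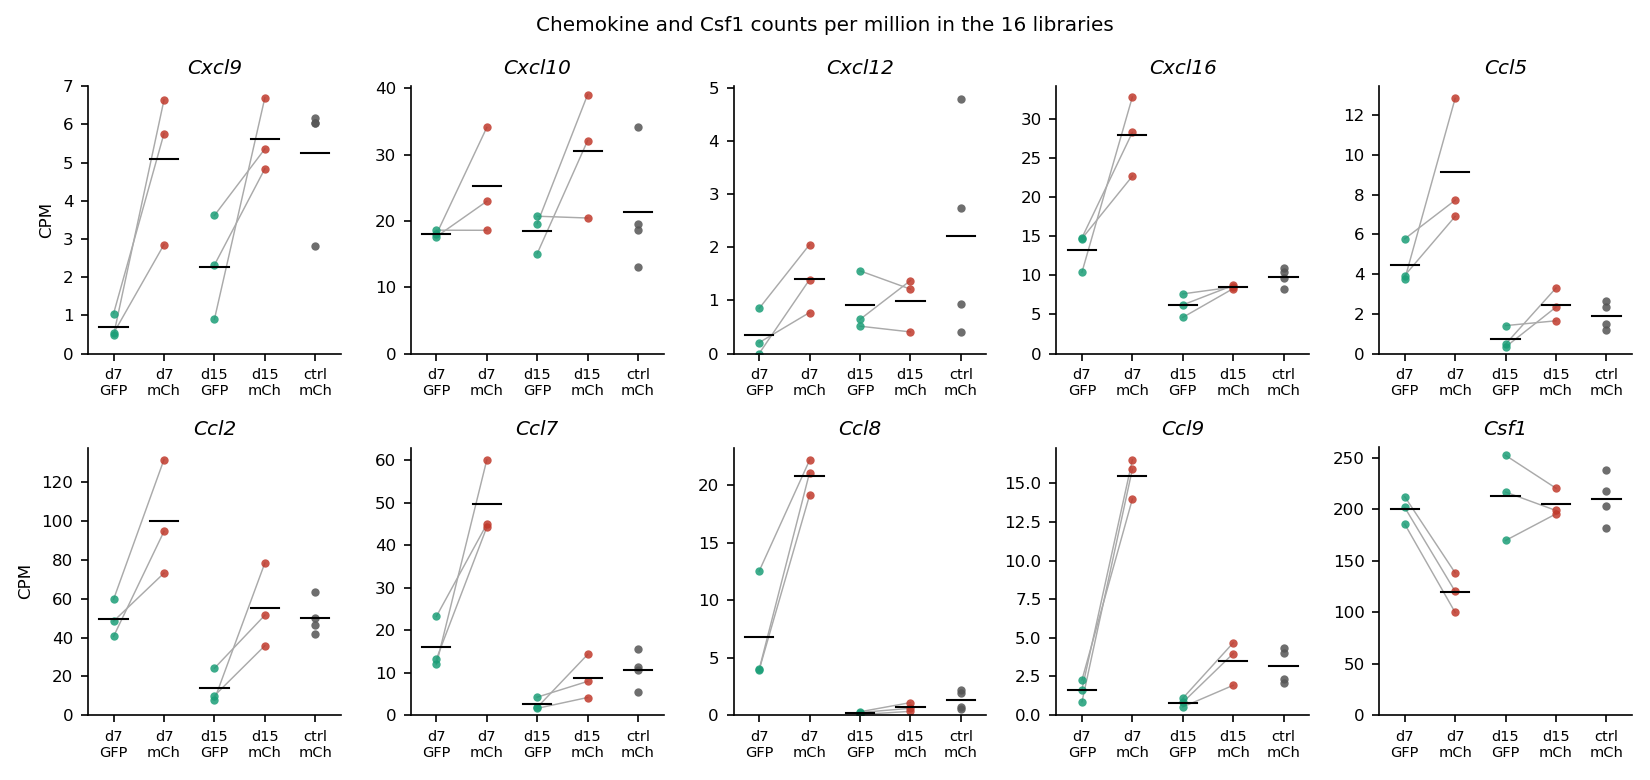
CPM (linear axes from 0) of the 10 genes in each of the 16 libraries, by group (d7 and d15, day of T cell injection; mCh, mCherry; ctrl, control tumours). Points are libraries, bars are group means and grey lines join the GFP and mCherry cells of 1 tumour. Ccl7, Ccl8 and Ccl9 stand highest in day 7 mCherry cells, and Csf1 lowest there.

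The comparison within tumours set surviving GFP cells against untargeted mCherry neighbours. In tumours injected on day 7, surviving cells held less RNA of 8 of the 10 genes and more of Csf1. Ccl9 fell most, by 9.70 times, then Cxcl9 by 7.53 times, and Ccl2, the most abundant chemokine, was 2.01 times lower. In tumours injected on day 15, 6 of 9 tested genes fell and none rose. Ccl9 and Ccl2 fell most there, by 4.20 and 4.01 times, and Csf1 showed no detectable difference.

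These calls are from edgeR's quasi-likelihood test with the tumour as a block, at an adjusted p below 0.05 over all genes tested. On day 7, 9.33% of all 14578 genes tested were called lower and 8.89% higher. The median log2 fold change of the 10 genes was −1.37, against −0.00 over all genes. On day 15, 10.6% of all 14260 genes tested were called lower, and the median of the 9 genes was −1.36, against 0.01. In 7 of the 10 genes every day 7 GFP library was below every mCherry library, as in 15.5% of all genes, and Csf1 was above in all, as in 18.4%. On day 15 this held, in the lower direction, for 5 of the 9 tested genes against 20.9% of all genes.

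**Figure D2:**
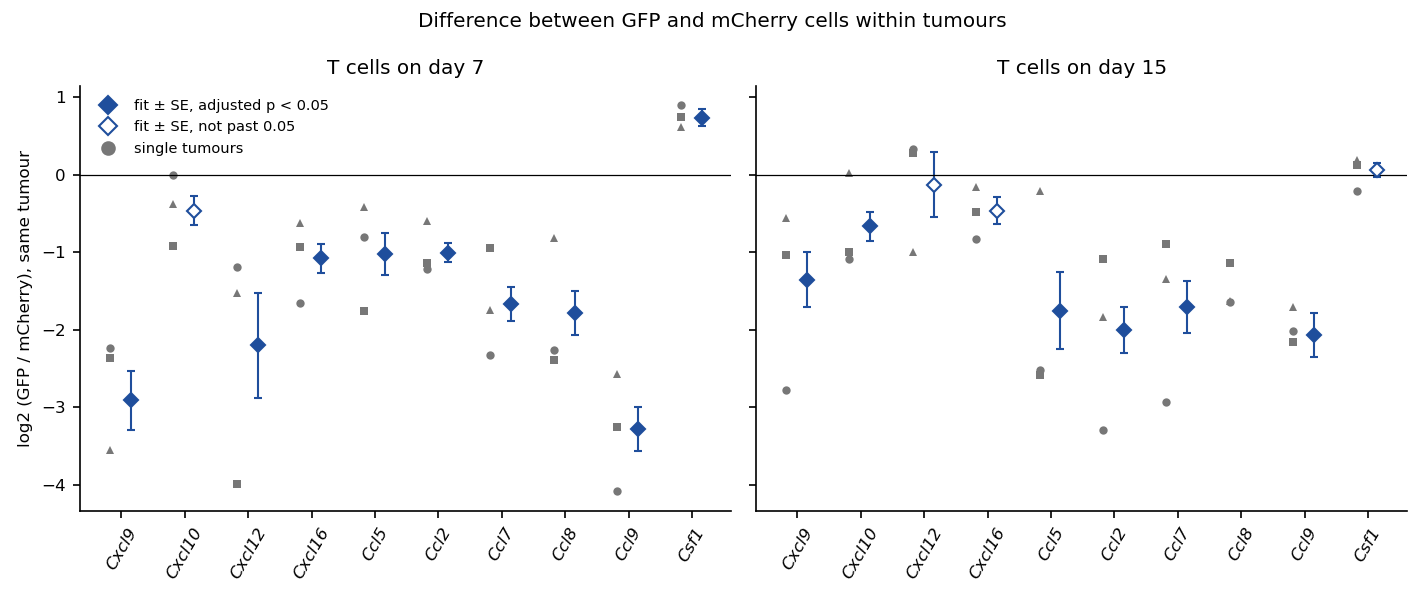
Difference between GFP and mCherry cells of the same tumour, as log2 of the ratio, for T cells injected on day 7 (left) and day 15 (right). Grey circles, squares and triangles are the single tumours in order of their number, and diamonds are the fitted value ± SE, filled where the adjusted p is below 0.05. Ccl8 has no fitted value on day 15. Fitted values reach −3.28 (Ccl9) on day 7 and −2.07 (Ccl9) on day 15, and Csf1 lies at 0.73 and 0.07.

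Among the chemokines that attract T cells, Cxcl9 was low in surviving cells on both days. On day 7 its level was 0.531, 1.05 and 0.482 CPM in the GFP cells of tumours 2, 3 and 4, and 2.85, 5.76 and 6.64 CPM in their mCherry cells. All 3 GFP libraries were below all 3 mCherry libraries, and the log2 fold change was −2.91 (SE 0.38, adjusted p = 7.03e-04, edgeR). On day 15 the GFP cells of tumours 1, 2 and 3 had 0.897, 2.32 and 3.62 CPM and their mCherry cells 6.70, 4.84 and 5.36 CPM. The groups again did not overlap, although the GFP cells of tumour 3 came closer to the mCherry cells than those of tumour 1, and the difference was smaller (−1.36, SE 0.36, adjusted p = 0.0241, edgeR). Without the tumour block this adjusted p was 0.0594.

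Cxcl10, the neighbour of Cxcl9 and a ligand of the same receptor, had smaller differences than Cxcl9 on both days. On day 7 it stood at 18.6, 18 and 17.6 CPM in GFP cells and 18.6, 34.1 and 22.9 CPM in mCherry cells of tumours 2, 3 and 4. The GFP libraries were close to each other, the mCherry cells of tumour 2 matched them, and the difference did not pass the test (−0.46, SE 0.19, adjusted p = 0.116). Without tumour 2 it did (adjusted p = 0.0240). On day 15 Cxcl10 was at 15.1, 19.6 and 20.7 CPM in GFP cells and 32.1, 39.0 and 20.4 CPM in mCherry cells of tumours 1 to 3. Here it fell (−0.67, SE 0.19, adjusted p = 0.0303, edgeR), but the groups overlapped through tumour 3, where both colours had nearly the same level. Leaving out tumour 1 ended the call (adjusted p = 0.0643), and so did leaving out the block (adjusted p = 0.0618). The reads of Art3 noted above were far below either level.

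Ccl5 was lower in surviving cells on both days. Its level on day 7 was 3.93, 3.74 and 5.78 CPM in GFP cells and 6.91, 12.9 and 7.73 CPM in mCherry cells, without overlap (−1.02, SE 0.27, adjusted p = 0.0273, edgeR). On day 15 it was 0.330, 0.472 and 1.41 CPM in GFP cells and 2.34, 3.30 and 1.65 CPM in mCherry cells, again without overlap though tumour 3 came near (−1.75, SE 0.50, adjusted p = 0.0332). Both calls rest on few tumours. The day 7 call ended without tumour 3 (log2 fold change −0.63, adjusted p = 0.255), and the day 15 call ended without tumour 1 (adjusted p = 0.0614), without tumour 2 (0.0576) and without the block (0.0567). Without tumour 3 the day 15 difference was −2.77.

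Cxcl16, made as a membrane protein and shed by Adam10 and Adam17, was at 10.4, 14.8 and 14.7 CPM in day 7 GFP cells and 32.8, 28.3 and 22.7 CPM in mCherry cells. All GFP values were lower, and the gene fell 2.11 times (−1.08, SE 0.19, adjusted p = 0.00408). On day 15 the GFP values of 4.63, 6.22 and 7.64 CPM were again all below the mCherry values of 8.32, 8.73 and 8.52 CPM. This difference did not pass the test (−0.46, SE 0.18, adjusted p = 0.0950). Zmynd15 reads, at most 3.76 CPM, could hold part of these levels.

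Cxcl12 was near the limit of detection. In day 7 GFP cells it had 8, 0 and 3 counts (0.850, 0 and 0.206 CPM) in tumours 2, 3 and 4, where a count of 0 allows up to 0.224 CPM (3 counts, counting error only). The mCherry cells had 41, 22 and 10 counts (2.05, 1.39 and 0.773 CPM). The groups overlapped and the call was marginal (−2.20, SE 0.68, adjusted p = 0.0498). It ended without the block (0.0854), without tumour 3 (−1.49, adjusted p = 0.193) and with DESeq2 (0.0525), and the difference was −3.24 without tumour 2. On day 15 the GFP cells had 1.56, 0.515 and 0.643 CPM and the mCherry cells 1.21, 0.407 and 1.37 CPM, intermixed (−0.13, SE 0.42, adjusted p = 0.860).

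The monocyte chemokines fell together. Ccl2, the main ligand of Ccr2, stood at 40.6, 59.7 and 48.4 CPM in day 7 GFP cells and at 94.8, 132 and 73.2 CPM in mCherry cells of tumours 2, 3 and 4. On day 15 it was 7.93, 24.1 and 9.97 CPM in GFP cells against 78.4, 51.5 and 35.8 CPM in mCherry cells of tumours 1, 2 and 3. The groups did not overlap on either day, with the widest gap in tumour 1 of day 15. The log2 fold change was −1.01 (SE 0.12, adjusted p = 5.10e-04) on day 7 and −2.0 (SE 0.30, adjusted p = 0.00156) on day 15.

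Ccl7, which shares Ccr2 with Ccl2, had 11.9, 23.2 and 13.1 CPM in day 7 GFP cells and 60.04, 44.9 and 44.2 CPM in mCherry cells. It fell by 1.67 on the log2 scale (SE 0.22, adjusted p = 7.56e-04), in every tumour. On day 15 it had 1.79, 4.21 and 1.57 CPM in GFP cells and 14.2, 7.91 and 4.12 CPM in mCherry cells. It was lower in GFP cells of each tumour (−1.71, SE 0.33, adjusted p = 0.00600), although the mCherry cells of tumour 3 were just below the GFP cells of tumour 2. Without tumour 1 the difference was −1.11 (adjusted p = 0.00429).

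Ccl8, a further monocyte attractant, had 3.93, 3.97 and 12.5 CPM in day 7 GFP cells and 19.1, 21.1 and 22.2 CPM in mCherry cells. No GFP library reached an mCherry library, though tumour 4 came closer than the others (−1.79, SE 0.28, adjusted p = 0.00232). On day 15 it was near the limit of detection in both colours, with 6, 5 and 1 counts (0.283, 0.215 and 0.0402 CPM) in GFP cells and 24, 13 and 7 counts (1.08, 0.588 and 0.321 CPM) in mCherry cells. It did not pass the filter on low counts there. With no filter its log2 fold change was −1.86 (SE 0.66, adjusted p = 0.0410).

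Ccl9, a ligand of Ccr1, had the largest day 7 difference of the 10. It was at 0.850, 1.65 and 2.27 CPM in GFP cells and 15.9, 16.5 and 14 CPM in mCherry cells (−3.28, SE 0.28, adjusted p = 6.40e-05). On day 15 the GFP values were 1.09, 0.816 and 0.522 CPM and the mCherry values 4.67, 3.98 and 1.92 CPM (−2.07, SE 0.28, adjusted p = 9.33e-04). The groups were clear of each other on both days, and the 3 tumours of day 15 gave like ratios.

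Csf1 went the other way on day 7. Its level was 186, 202 and 212 CPM in GFP cells and 99.7, 120 and 138 CPM in mCherry cells. Every GFP library was above every mCherry library, and the gene rose 1.66 times (log2 fold change 0.73, SE 0.11, adjusted p = 0.00141). On day 15 its level was 170, 217 and 252 CPM in GFP cells and 195, 199 and 220 CPM in mCherry cells, which overlapped (0.07, SE 0.09, adjusted p = 0.649). The day 7 mCherry cells, at a mean of 119 ± 19.2 CPM (SD, n = 3), were the low group, while the means of the other 4 groups lay between 200 and 213 CPM. Il34, the other ligand of Csf1r, rose on both days, from 13.0 ± 1.5 to 31.9 ± 1.88 CPM on day 7 (1.29, SE 0.15, adjusted p = 3.17e-04) and from 11.9 ± 1.49 to 21.4 ± 2.38 CPM on day 15 (0.87, SE 0.15, adjusted p = 0.00337).

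Markers of several host cell types were lower in GFP cells too, while MHC class II genes as a set were not. Of the 19 macrophage and monocyte markers, 17 fell on day 7 (median −2.48). Of the 14 tested on day 15, 9 fell (median −1.12). The most abundant of them were Lyz2, which encodes lysozyme, at 62.2 ± 30.7 CPM in day 7 GFP against 371 ± 51.9 CPM in mCherry cells, and Cd14, a co-receptor for bacterial lipopolysaccharide, at 36.3 ± 7.76 against 109 ± 7.93 CPM. On day 15 Lyz2 was at 2.79 ± 0.19 against 5.19 ± 1.86 CPM and Cd14 at 43.3 ± 8.17 against 76.3 ± 7.54 CPM. Ptprc, which encodes CD45, was at 1.42 ± 0.607 against 7.80 ± 2.84 CPM on day 7 and at 0.589 ± 0.0468 against 1.18 ± 0.275 CPM on day 15. No macrophage marker was at 0 in every library of a group. Endothelial markers fell too, 9 of 9 tested on day 7 (median −3.50) and 4 of 11 on day 15 (median −1.06), led in level by Eng and Plvap. Of 8 fibroblast markers tested on day 7, 2 fell (median −0.99). On day 15, 5 of 11 tested fibroblast markers fell and 1 rose (median −1.53), while their summed level overlapped (1356 to 1508 CPM in GFP and 1028 to 1518 CPM in mCherry libraries). Pericyte markers fell in 1 of 3 tested on day 7 and 2 of 4 on day 15, and neutrophil markers in 1 of 2 and 2 of 2. Of 12 markers of dendritic cells and MHC class II, led in level by Cd74 and H2-Ab1, 2 of 8 tested rose and 1 fell on day 7 (median 0.09), and 6 of 7 rose and none fell on day 15 (median 1.02). Their summed level was 1006 to 2216 CPM in GFP and 993 to 1620 CPM in mCherry libraries of day 7, and 545 to 2242 against 348 to 670 CPM on day 15. Single dendritic cell markers of this list went both ways on day 7. Itgax (0.142 ± 0.245 against 1.75 ± 1.04 CPM), Xcr1 and Clec9a had lower means in GFP than in mCherry cells. Zbtb46 (5.05 ± 0.868 against 4.49 ± 1.25 CPM) and Cd209a had higher means, and Flt3 was alike (0.273 against 0.283 CPM). They also went both ways on day 15. Itgax (0.0864 ± 0.074 against 0.211 ± 0.138 CPM), Flt3 and Cd209a had lower means in GFP cells. Zbtb46 (3.29 ± 0.0953 against 3.01 ± 0.706 CPM), Xcr1 and Clec9a had higher means. The MHC class II genes Cd74, H2-Aa, H2-Ab1, H2-Eb1, H2-DMa and Ciita all had higher means in GFP cells of day 15. Clec9a was at 0 in all day 7 GFP libraries and Cd209a in all of day 15 GFP. Of 14 T and NK cell markers, 2 passed the filter on day 7 and 1 on day 15, without a call. Their summed level was 5.02 to 24.2 CPM over the mixed tumour libraries, mostly Lck. Cd4 was at 0 in all day 7 GFP libraries, Prf1 and Klrb1c in all of day 15 GFP, and Cd3d, Cd4, Cd8b1, Gzmb and Klrb1c in all of day 15 mCherry. The part of host cell RNA in the chemokine differences was not tested.

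Genes of receptors and proteases that act on the 10 products were read in the same libraries. Among chemokine receptors and Csf1r, Ccr1 and Csf1r fell on day 7 (log2 fold changes −2.73 and −2.41). Ccr1 was named after its values were seen, and Csf1r is also one of the macrophage and monocyte markers counted above. The part of host cell RNA in these receptor differences was not tested. On day 15 only Csf1r (−0.82, adjusted p = 0.191) and Ackr3 passed the filter, and neither was called. Ackr3, the scavenger of Cxcl12, was the most abundant receptor at mean levels of 237 to 295 CPM in the 5 groups, and it was not called on day 7 either (0.20, SE 0.12, adjusted p = 0.308). Cxcr3, the receptor of Cxcl9 and Cxcl10, did not pass the filter on either day. The proteases that shed Cxcl16, Adam10 and Adam17, fell slightly on both days (−0.32 and −0.46 on day 7, −0.37 and −0.54 on day 15). Mmp14, a membrane protease that can cut chemokines, was at −0.28 on day 7 (adjusted p = 0.0815) and fell by 0.44 on day 15. In that list of 6 proteases, 3 of 5 tested fell on day 7 and 4 of 5 on day 15.

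Neutrophil chemokines showed a like pattern. Of 6 genes listed, 5 were tested. On day 7, 4 fell (median −1.37), and on day 15 all 5 fell (median −1.60). Cxcl1, Cxcl2 and Cxcl5, ligands of Cxcr2, were at −1.37, −1.84 and −1.20 on day 7 and at −1.60, −2.23 and −0.78 on day 15. Csf3, which drives the making of neutrophils, was at −2.54 and −2.14. Of 29 further chemokines and related cytokines, a list that also holds those of the neutrophil list but Csf3, 14 were tested on day 7, of which 9 fell and 2 rose (median −1.58). On day 15, 5 of 10 fell and 2 rose (median −0.99). Both rises on each day were Cx3cl1, a membrane-bound chemokine (0.70 and 0.47), and Il34. Ccl6, a close relative of Ccl9, fell on both days (−1.83 and −1.49).

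Interferon-induced genes that are not chemokines rose while Cxcl9 fell. Of 16, 15 rose on day 7 (median 1.69) and 13 on day 15 (median 0.87), and none fell. Among the 3 most abundant, Gbp2 and Iigp1, GTPases of cell-autonomous defence, rose by 2.02 and 2.25 on day 7 and by 1.08 and 1.17 on day 15, and Psmb8, a subunit of the immunoproteasome, rose by 0.62 and 0.30. Of 12 genes of interferon sensing, 6 rose and 2 fell on day 7, and 5 rose and 2 fell on day 15. Stat2, a transcription factor of interferon signalling, rose on both days (2.11, then 1.28), as did Irf7, Irf9 and Socs1. Irf1, a further factor of the pathway, rose on day 7 (1.39) and was at 0.28 on day 15 (adjusted p = 0.132). The receptor subunits Ifngr2 and Ifnar1 fell on both days (−0.54 and −0.33, then −0.34 and −0.29). Of 10 genes of NF-kB signalling, 1 rose and 3 fell on day 7, and 1 rose and 2 fell on day 15. Nfkbia, an inhibitor that NF-kB itself induces, fell on both days (−0.39 and −0.60), as did the interleukin-1 receptor Il1r1 (−1.71 and −1.40). Nfkbiz, a nuclear regulator, fell on day 7 (−0.37) and was at −0.23 on day 15 (adjusted p = 0.0990). Nfkb1 was not called on either day (0.27 and −0.06).

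**Figure D3:**
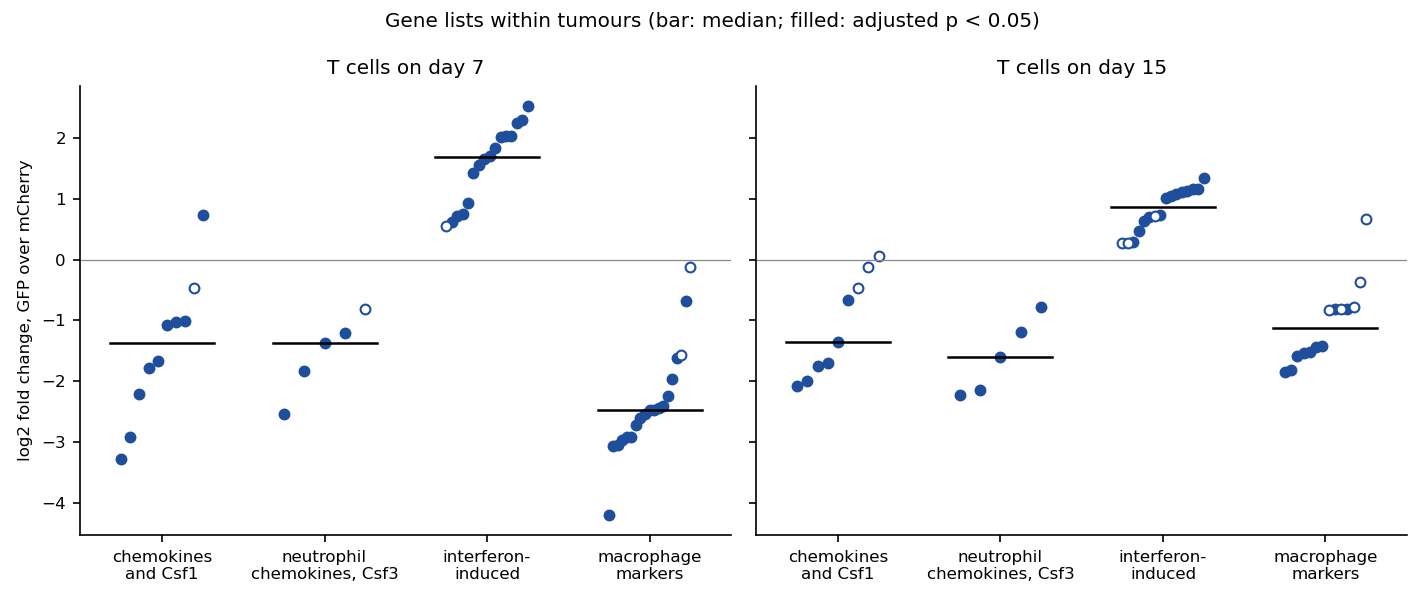
Fitted log2 fold change of GFP over mCherry cells for the tested genes of 4 lists, with T cells on day 7 (left) and day 15 (right). Each circle is a gene, filled where the adjusted p is below 0.05, and bars are list medians. The 10 genes described here have medians of −1.37 and −1.36, interferon-induced genes 1.69 and 0.87, and macrophage markers −2.48 and −1.12.

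The day 15 libraries were also set against the control tumours, a comparison between animals. Tumour age and cell number are not given for the controls, so a difference in these cannot be told apart from the attack. The untargeted mCherry cells did not differ detectably from controls in any of the 10 genes. Surviving GFP cells held less RNA of the monocyte chemokines Ccl2, Ccl7, Ccl8 and Ccl9 than cells of unattacked tumours. The T cell chemokines Cxcl9, Cxcl10, Cxcl12, Cxcl16 and Ccl5 were not called in either comparison, nor was Csf1. These comparisons share the controls with each other and the day 15 libraries with the comparison within tumours.

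Control values of the monocyte chemokines in libraries 1 to 4 were 63.3, 46.3, 41.6 and 49.9 CPM for Ccl2. For Ccl7 they were 10.5, 11.2, 5.45 and 15.5 CPM. For Ccl9 they were 2.33, 4.36, 2.05 and 4.02 CPM. All were above each day 15 GFP value given above, and the mCherry values of day 15 overlapped them. Ccl8, at 0.534, 2.19, 0.706 and 1.93 CPM in controls, was also above each day 15 GFP library. GFP cells fell by 1.80 (SE 0.35, adjusted p = 0.0180) for Ccl2, by 2.02 (SE 0.42, adjusted p = 0.0211) for Ccl7, by 2.84 (SE 0.71, adjusted p = 0.0357) for Ccl8 and by 1.92 (SE 0.37, adjusted p = 0.0180) for Ccl9 on the log2 scale. These are 4 of 10 genes, where 6.97% of all 14801 genes tested were called lower. GFP libraries were below all controls in 5 of 10 genes, the fifth being Cxcl16, against 19.5% of all genes.

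Cxcl9 in controls was at 6.03, 6.16, 2.82 and 6.03 CPM, so that library 3 was below all day 15 mCherry cells and near the lowest of day 7. GFP cells of day 15 stood at −1.14 relative to these controls (SE 0.43, adjusted p = 0.104). Cxcl10 in controls was at 34.1, 13.0, 19.5 and 18.5 CPM, on both sides of the GFP cells (−0.16, SE 0.30, adjusted p = 0.740). Cxcl16 was at 10.5, 9.66, 8.30 and 11 CPM in controls, all above the GFP cells, and just missed the threshold (−0.62, SE 0.18, adjusted p = 0.0516). Ccl5 was at 2.36, 1.46, 1.21 and 2.63 CPM in controls (−1.30, SE 0.50, adjusted p = 0.114). Cxcl12 ranged from 0.408 to 4.80 CPM in controls (−1.22, SE 0.77, adjusted p = 0.306). Csf1 was at 218, 182, 203 and 239 CPM there, around the GFP cells (0.07, SE 0.14, adjusted p = 0.766).

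For mCherry cells against controls, log2 fold changes ran from −1.10 (Cxcl12, SE 0.77) to 0.53 (Cxcl10, SE 0.33), and edgeR called 0 of 10 genes. No gene at all was called (0% of 14800), 0 of the 10 and 2104 of all genes had an unadjusted p below 0.05, and DESeq2 called 0 of the 10 and 262 genes. Ccl2 was at 0.15 (SE 0.24), Ccl9 at 0.17 (SE 0.36), Cxcl9 at 0.12 (SE 0.27) and Csf1 at −0.02 (SE 0.10). The macrophage markers were not called in this comparison (0 of 17, median −1.35), whereas 13 of 17 were lower in GFP cells than in controls (median −2.77). Lyz2 was at 26.3 ± 14.9 CPM in controls (n = 4). Their part in the GFP differences was not tested. All 4 calls against controls ended without GFP tumour 1 (adjusted p of 0.0511 to 0.0861) and without GFP tumour 3 (0.0510 to 0.0907), where Cxcl16 and Ccl5 passed instead (0.0434 and 0.0415). Those of Ccl8 and Ccl9 also ended without GFP tumour 2 (0.0964 and 0.0620), and that of Ccl8 without control 2, 3 or 4 (0.0502 to 0.0679). Without GFP tumour 2 the difference of Ccl2 was −2.42.

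**Figure D4:**
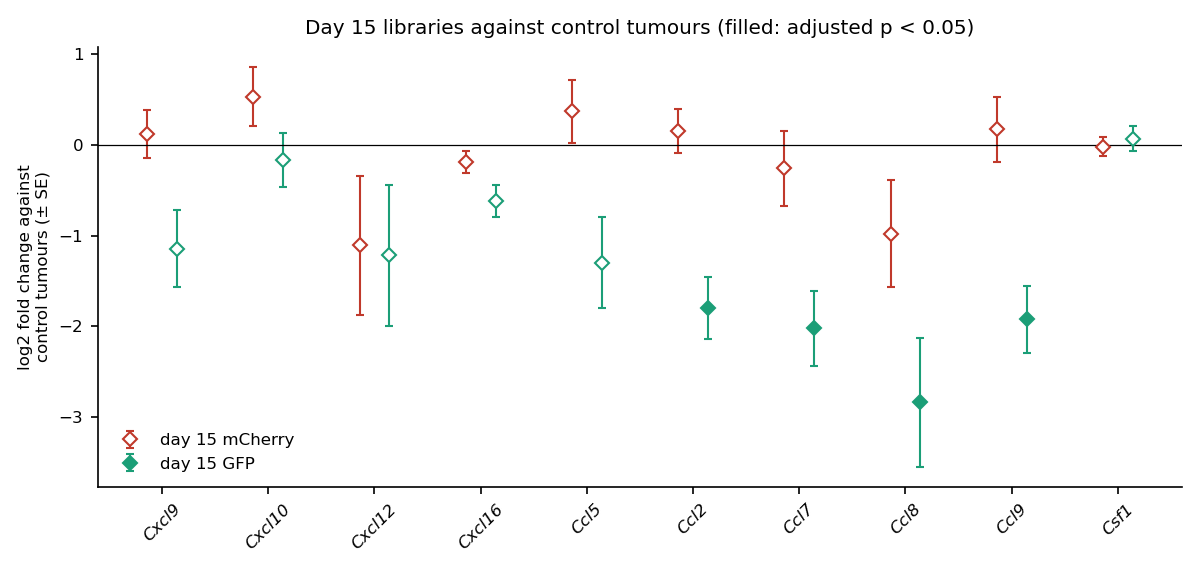
Fitted log2 fold change ± SE of day 15 mCherry cells and day 15 GFP cells against the 4 control tumours, with filled diamonds at an adjusted p below 0.05. The mCherry values lie between −1.10 and 0.53 with none filled. The GFP values of Ccl2, Ccl7, Ccl8 and Ccl9 are filled, between −1.80 and −2.84.

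Whether the difference between GFP and mCherry cells itself differed with the day of injection was tested in the 12 libraries of mixed tumours. None of the 10 genes passed, with 0.211% of all 16626 genes called in either direction. At an unadjusted p below 0.05 there were 6 of the 10 and 1703 of all genes. Csf1 came closest, its difference being lower on day 15 by 0.67 (SE 0.15, adjusted p = 0.0996), and DESeq2 called it alone of the 10 (adjusted p = 0.0181). It also passed without day 7 tumour 4 (adjusted p = 0.0336). The differences of Cxcl9 (1.55, SE 0.61), Cxcl12 (2.09, SE 0.87), Cxcl16 (0.62, SE 0.27) and Ccl9 (1.21, SE 0.41) were nearer 0 on day 15, and that of Ccl2 was larger there (−1.0, SE 0.38), none past the threshold in this fit. Ccl7, Ccl8, Ccl5 and Cxcl10 lay between −0.70 and −0.03.

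Ordered by group mean, 5 of the 10 genes (Cxcl16, Ccl5, Ccl7, Ccl8 and Ccl9) stood highest in day 7 mCherry cells with no overlap with the next group, as did 8.15% of 16626 genes. Ccl2 was highest there too but overlapped day 15 mCherry cells. Ccl8 stood at 20.8 ± 1.54 CPM in day 7 mCherry cells, 6.81 ± 4.95 in day 7 GFP cells and 1.34 ± 0.842 in controls, with each step free of overlap, and Ccl5 had such steps from 9.16 ± 3.22 to 4.48 ± 1.13 and 2.43 ± 0.830 CPM. For Cxcl9, Cxcl10 and Cxcl12 every group overlapped its neighbour in the order. The lowest group was day 15 GFP for Cxcl16 and the 5 CC chemokines, and day 7 GFP for Cxcl9, Cxcl10 and Cxcl12. Levels set across days also cross sequencing runs.

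Over the 16 libraries, after the mean of each run was subtracted, Ccl2 and Ccl7 followed each other (Pearson r 0.91), as did Ccl8 and Ccl9 (r 0.87). Csf1 had negative correlations with Ccl9 (r −0.71) and Cxcl12 (r −0.58). Among 11593 other genes, the closest in pattern were Galnt4 to Cxcl9 (r 0.94), Nfkbiz to Cxcl10 (0.74), Mterf4 to Cxcl12 (0.84), Akr1c13 to Cxcl16 (0.93), Farp2 to Ccl5 (0.91), Ednra to Ccl2 (0.95), Ctnnb1 to Ccl7 (0.92), Ccl6 to Ccl8 (0.94), Minos1 to Ccl9 (0.96) and Rfx5 to Csf1 (0.93). Tumour, colour and depth are shared by the points of these correlations, which are descriptions.

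In the authors' deposited table of day 7, all 10 genes had the sign found here, with 7 lower and 1 higher at an adjusted p below 0.05. The call was as here for 9 of the 10, and the exception was Cxcl12 (adjusted p = 0.0525 in the authors' deposited table). Cxcl10 was called in neither (adjusted p = 0.165 in the authors' deposited table). The authors' deposited table of day 15 lists 9 of the genes, without Ccl8, and 6 are lower, with sign and call as here for all 9.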

How the data were processed

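RNA was sequenced from 16 libraries of sorted 4T07 cells. Per the labels' protocols, digestion lasted 20 minutes at 37 °C, sorting used a CD45 stain and DAPI, and a sequencing company made the gene counts. What was deposited are raw counts per gene. The submitters' processing notes name mm10 as the build. The aligner, counter, annotation, strand setting and CD45 gate are not stated in the sources used here. The authors deposited further tables made with DESeq2, per the submitters' processing notes, whose log2 fold changes and adjusted p-values were used only where named. The sources do not say whether the tumours of a group were handled apart, and n counts tumours.

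Of 49315 rows, 176 without a symbol (at most 0.0110% of counts) were left out. CPM are counts per 1000000 counts of a library. Genes kept by filterByExpr (minimum count 10) were normalized with TMM, and quasi-likelihood F-tests were run in edgeR 4.0.16 (R 4.3.3), with Benjamini-Hochberg adjustment over all genes tested and a threshold of 0.05. SE is the log2 fold change divided by the root of F. Within a day, colours were compared with the tumour as a block, day 15 libraries with controls without one, and the difference between days as a contrast over 12 libraries. Replicates differed beyond counting error (chi-square per degree of freedom 5.34 to 92.1). Tumours and controls carry the numbers of the count columns. The day 7 columns run from 2 to 4 and the labels' titles from 1 to 3, and the control columns from 1 to 4 and the titles from 0 to 3, so these were matched to the labels by group only. Column numbers pair the samples: same-numbered libraries had residual correlations of 0.109 to 0.158 on day 7 (others −0.125 to 0.00688), and on day 15, where the labels give the pairs, 0.0906 to 0.232 (others −0.183 to 0.0175).

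The genes, lists, motifs and tests were chosen with earlier results of these data known. Every one of the 10 genes is named. Of each list, the 3 genes of largest mean CPM and those called on both days were taken for naming (2 markers per cell type), not all of which are reported here. The scripts were tested on simulated data. As alternatives, DESeq2 1.42.0 was run, and edgeR with DESeq2's size factors, with no filter, a minimum count of 50, thinning to equal depth, no block, each tumour or library left out in turn, and joint fits.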

Additional observations from a re-analysis of the deposited data

Results flagged for a closer look

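Among the control tumours, Cxcl9 in library 3 was at 2.82 CPM, while the other 3 were at 6.03, 6.03 and 6.16 CPM. The gap of this library to its nearest neighbour was 0.963 of the range of the group. The bound used here for such a gap is passed by chance in about 1 of 20 groups of 4 libraries. Without that library, the difference of day 15 mCherry cells from controls was −0.09 on the log2 scale, against 0.12 with it, and it was called in neither case.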

How the results depend on the processing

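Of the genes called within tumours, 7 of 9 on day 7 (Cxcl9, Cxcl16, Ccl2, Ccl7, Ccl8, Ccl9 and Csf1) and 3 of 6 on day 15 (Ccl2, Ccl7 and Ccl9) kept direction and call in each alternative that could test them. The causes of the changes below were not tested. On day 15, without the replicate block, 3 of the 10 genes were called instead of 6; on day 7 the block changed only the call of Cxcl12 among the 10. Leaving out each tumour gave 7 to 10 called genes of the 10 on day 7 (1156 to 4558 of all genes, against 2656) and 4 to 6 on day 15 (1736 to 2546, against 2782). Thinning to equal depth ended the day 15 call of Ccl5 (adjusted p = 0.0888, with a range over its alternatives of 3.34e-06 to 0.0888). For day 15 mCherry cells against controls, DESeq2 called 262 genes and leaving out a library gave 0 to 7. For day 15 GFP cells against controls, leaving out a library gave 0 to 4 of the 10 and 287 to 2093 of all genes, against 4 and 1933, and DESeq2 called 6 and 2953. Ccl8 was no longer called there without control 2, 3 or 4, while Cxcl16 passed in 6 alternatives. For the difference between days, DESeq2 called 1 of the 10 and 153 genes, no filter 3 (Cxcl9, Ccl2 and Csf1) and 354, a minimum count of 50 gave 14 genes, no replicate block 2, and leaving out a tumour 0 to 1 of the 10 and 3 to 126 genes, against 35.

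Signs turned only for values that no fit called. When a tumour or library was left out, log2 fold changes within day 15 tumours ran from −0.52 to 0.39 for Cxcl12 and from −0.0065 to 0.16 for Csf1. For mCherry cells against controls they ran from −0.092 to 0.21 for Cxcl9, from −0.17 to 0.38 for Ccl2, from −0.78 to 0.071 for Ccl7, from −0.068 to 0.46 for Ccl9 and from −0.086 to 0.039 for Csf1. For GFP cells against controls they ran from −0.35 to 0.18 for Cxcl10 and from −0.070 to 0.20 for Csf1. For the difference between days they ran from −0.56 to 0.032 for Cxcl10, from −0.54 to 0.56 for Ccl7 and from −0.34 to 0.53 for Ccl8. Thinning turned Cxcl9 in mCherry cells against controls (−0.0015) and Ccl8 in the difference between days (0.026). Depth limits Cxcl12 and, on day 15, Ccl8, which some alternatives could not test.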
